A study of Mus musculus with 10 samples.

Results

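The 9 genes of bone and cartilage differentiation followed in cultured cranial neural crest cells of the mouse were Runx1, Runx2, Sp7, Alpl, Spp1, Sparc, Acan, Comp and Postn. Their rows were found by gene symbol, and each symbol matched 1 row of the 43346 genes in the count table. The cells were O9-1 cells, a mouse line of cranial neural crest that is grown on Matrigel in conditioned medium and that is tetraploid. Transcript levels were measured by RNA-seq of poly-A RNA in 4 biologically independent wildtype (WT) samples, 3 Kat5 knockout (ko) clones and 3 Ep400 ko clones. The ko clones had been made by CRISPR/Cas9 editing and each grew from 1 sorted cell, so that a clone stands for the descendants of that cell. All Kat5 alleles of the Kat5 clones carried frameshifts, whereas Ep400/2 and Ep400/3 retained alleles with in-frame deletions in the ATP-binding site. All groups were kept in the same growth medium, and no treatment that induces bone or cartilage was named for any of them. Kat5 is a histone acetyltransferase and Ep400 an ATP-dependent chromatin remodeler, and both are subunits of the Tip60/Ep400 complex. The comparisons ask how these genes differ in clones in which either subunit was lost. Transfection, sorting and growth from 1 cell were named for the clones but not for WT. Against WT, their effects cannot be told apart from that of the loss.

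Cranial neural crest cells give rise to most bone and cartilage of the face. Osteoblasts form under the control of Runx2, with Sp7 (osterix) acting downstream of it, and then produce alkaline phosphatase and a matrix rich in type I collagen, osteopontin and osteonectin, which mineralises. Chondrocytes form under the control of Sox9 with Sox5 and Sox6, and embed themselves in type II collagen and the large proteoglycan aggrecan. Runx1 is best known from blood formation but is also expressed in early skeletal mesenchyme, and periostin is a matrix protein of the periosteum, the periodontal ligament and the early craniofacial mesenchyme.

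In the Ep400 ko clones, the aggrecan gene Acan was almost silent, with 0 to 8 raw counts per clone where WT libraries had 213 to 1107. Spp1, the osteopontin gene, rose 1.70-fold to become the 4th most abundant gene in each Ep400 clone, and Comp, the gene of cartilage oligomeric matrix protein, rose 7.12-fold from a very low level. In the Kat5 ko clones no member passed the test. Sp7 and Spp1 had lower values in all 3 Kat5 clones than in any WT library, but their adjusted p-values were 0.0761 and 0.0831. Runx1, Runx2 and Sparc passed the test in neither ko, and Postn varied too much among the libraries of each group to be called.

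Libraries held 30968945 to 48301792 counts on genes. All values below are normalized counts, which are raw counts after division by the size factor of the library, unless a sentence says otherwise. Differences are log2-fold changes of the quasi-likelihood test in edgeR. P-values were adjusted by Benjamini-Hochberg over all genes tested, and a gene was called where the result did not exceed 0.05. A p-value measures the spread between these samples and clones alone, and both ko groups were compared with the same 4 WT libraries. In bulk RNA, fewer cells with a transcript and less of the transcript per cell cannot be told apart. The targeted genes followed the labels: Kat5 was 1994 ± 149 in WT (SD, n = 4) and 771 ± 139 in Kat5 ko clones (n = 3; adjusted p = 0.0217), and Ep400 was 5914 ± 153 in WT and 2153 ± 139 in Ep400 ko clones (adjusted p = 0.00121). Of 16 cranial neural crest markers, 12 had a mean of at least 10 in WT, while Sox10 and Foxd3 were at 0 in all 10 libraries. The summed level of these markers was 39449 to 52346 in WT, 40283 to 45216 in Kat5 clones and 69121 to 119002 in Ep400 clones. In Ep400 ko 5 of the 14 tested rose, where 8.09% of all genes did, and 0 fell. The 5 were Pdgfra, Pax3 (mean under 10 in WT), Tfap2a, Dlx1 and Snai2. The test of Pax3 rested on the Ep400 clones, a selection that favours a difference, so the count of 5 is a description. In Kat5 ko 0 of 12 tested were called. The part of these markers in the results was not tested. Clone Kat5/1 stood apart in smooth muscle genes. Its 6 smooth muscle markers summed to 25279, of which Acta2 made up 18629 and Tagln 6646, whereas the sum was 218 to 619 in WT and as low as 17.2 in another Kat5 clone. Without it the number of genes called over the whole table for Kat5 went from 67 to 2651, so values without this clone are given for the members tested in Kat5 ko. Other cell type markers were low. The 7 epithelial markers summed to 61.2 to 177 in WT, 15.5 to 30.5 in Kat5 and 20.6 to 35.4 in Ep400 clones, and 6 endothelial markers to 36.5 to 62.3, 7.36 to 26.4 and 8.12 to 17.2. The 7 neuronal markers summed to 112 to 211, 65.1 to 372 and 230 to 943, the 6 glial ones to 53.7 to 83.6, 36.8 to 80.4 and 67.8 to 258, and the 6 adipocyte ones to 97.2 to 276, 108 to 208 and 167 to 285. Smooth muscle markers summed to 88.1 to 2146 in Ep400 clones. Among these markers Krt18, Krt8 and Pecam1 fell and Tubb3, Stmn2 and Cebpa rose in Ep400 ko, and none was called in Kat5 ko. Tested in Ep400 ko were 3 epithelial, 1 endothelial, 2 neuronal, 1 glial, 2 smooth muscle and 3 adipocyte markers. The tests of Krt18 and Pecam1 (means under 10 in Ep400 clones) rested on the WT libraries. That of Cebpa (mean under 10 in WT) rested on the Ep400 clones. The part of all these markers in the results was not tested.

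**Figure D1:**
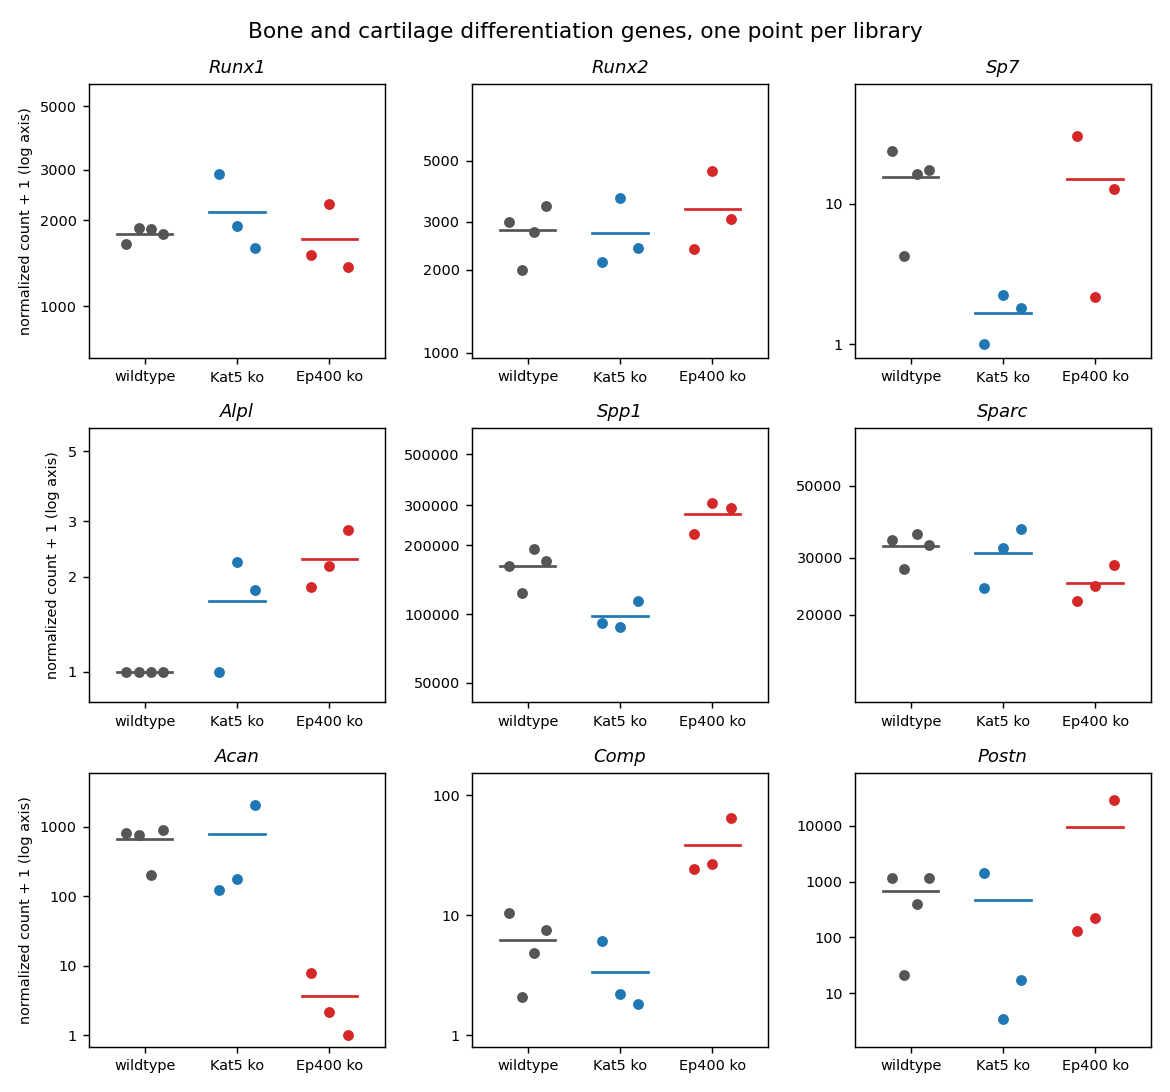
Normalized counts of the 9 genes on a log axis after adding 1, with 1 point per library and a line at the mean of each group (4 WT, 3 Kat5 ko and 3 Ep400 ko libraries). The Ep400 clones lie between 0 and 6.87 for Acan, below all WT libraries, and above all WT libraries for Spp1 and Comp, whereas Postn spreads from 2.45 to 28536 with no separation of the groups.

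Levels per length differed widely among the members. On the scale of normalized counts per kilobase of annotated exon, the order in WT was Spp1 (98567), Sparc (8574), Runx2 (316), Runx1 (149), Acan (90.7), Postn (78.6), Sp7 (4.24), Comp (1.77) and Alpl (0). The ranges of Acan and Postn over the WT libraries overlapped, as did those of Postn and Sp7 and of Sp7 and Comp. Overlap of ranges leaves out that the genes were measured in the same libraries, and their order within a library was not tested. Comp and Alpl cannot be separated at this depth, since a count of 0 for Alpl allows up to 3 counts. The other neighbours in this order did not overlap. In Kat5 clones Spp1, Sparc and Runx2 came first in the same order. In Ep400 clones Acan had dropped to the place before last, at 0.358 normalized counts per kilobase, and Comp followed Runx1 at 12.6. Among the members, WT cells had abundant transcripts of Spp1 and Sparc and intermediate levels of both Runx genes. Transcripts of the later osteoblast genes Sp7 and Alpl were few or absent.

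Runx1 (ENSMUSG00000022952, minus strand of chr16:92601466-92826149 in mm10) encodes a DNA-binding factor of the Runt family. Its values were 1654, 1878, 1856 and 1783 in WT, 2892, 1911 and 1603 in clones Kat5/1 to Kat5/3, and 1516, 2276 and 1371 in clones Ep400/1 to Ep400/3. WT libraries were close to each other, and each ko group had clones above and below all of them. The log2-fold change was 0.23 in Kat5 ko (95% interval −0.25 to 0.70, adjusted p = 0.549) and −0.05 in Ep400 ko (−0.47 to 0.37, adjusted p = 0.878). Without Kat5/1 the change in Kat5 ko was −0.063 (adjusted p = 0.768). Genes of chromosome 16 as a whole had a median shift of 0.22 in Kat5/1 and −0.32 in WT/3 on the log2 scale, and their part in the spread was not tested.

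Runx2 (ENSMUSG00000039153, minus strand of chr17:44495987-44814797), the master regulator of osteoblast formation, was at 2998, 1994, 2740 and 3422 in WT. It was at 2140, 3662 and 2408 in Kat5 clones and at 2393, 4577 and 3073 in Ep400 clones. The highest library of either ko lay above WT and the remaining clones within its range. The log2-fold change was −0.06 in Kat5 ko (95% interval −0.60 to 0.48, adjusted p = 0.909) and 0.27 in Ep400 ko (−0.29 to 0.84, adjusted p = 0.473). Without Kat5/1 it was 0.088 in Kat5 ko (adjusted p = 0.824). These intervals leave room for changes below 2-fold in either direction. Runx2 overlaps the gene Supt3 on the opposite strand, which had 388 to 1632 raw counts per library. The libraries were stranded, but the strand setting of the counting is not given in the sources used here, so that reads of the overlap could be shared.

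Sp7 (ENSMUSG00000060284, minus strand of chr15:102356606-102367182) encodes the zinc finger factor osterix, which is required for osteoblasts to mature. Raw counts were 19, 3, 16 and 20 in WT, 0, 1 and 1 in Kat5 clones and 34, 1 and 13 in Ep400 clones. All Kat5 clones were below all WT libraries, and Ep400 clones ranged from below to above them. With 58 counts in WT and 2 in Kat5 clones, the level in WT was 21.8 times that in Kat5 clones, with an exact 95% counting interval of 5.76 to 184 that covers counting error only. Sp7 entered the Kat5 comparison through its WT libraries and was not called (log2-fold change −4.23, SE 0.96, adjusted p = 0.0761). It was called with DESeq2 (adjusted p = 0.0169) and without Kat5/1 (adjusted p = 0.0425), and it was too low to be tested when WT/1, WT/3 or WT/4 was left out. In Ep400 ko the mean was 14.05 ± 14.16 (n = 3) against 14.4 ± 8.09 in WT (n = 4), and the 95% interval of the log2-fold change ran from −1.92 to 1.94. Genes of chromosome 15 had a median shift of −0.36 in Kat5/1 and 0.25 in Kat5/3.

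Alpl (ENSMUSG00000028766, minus strand of chr4:137741733-137796384), which encodes the tissue-nonspecific alkaline phosphatase of mineralising cells, was too low to test in all comparisons. It had 0 raw counts in all 4 WT libraries and in Kat5/1, 1 count each in Kat5/2, Kat5/3, Ep400/1 and Ep400/2, and 2 counts in Ep400/3. A count of 0 allows up to 3 counts, or 2.46 to 3.56 normalized counts in WT libraries, which is above all values measured in the clones. No difference was detectable at this depth.

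Spp1 (ENSMUSG00000029304, plus strand of chr5:104435118-104441050) encodes osteopontin, an acidic phosphoprotein of bone matrix that binds integrins and is also made by macrophages and other cells. WT libraries had 162938, 123813, 192037 and 170966 normalized counts, or 0.338% to 0.523% of all counts in a library. Kat5 clones had 91698, 87450 and 114142, and Ep400 clones 225368, 306274 and 290275. The 3 groups did not overlap: all Kat5 clones were below and all Ep400 clones above WT. Among the genes of a library Spp1 ranked 6th to 8th in WT, 14th to 21st in Kat5 clones and 4th in all Ep400 clones.

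The rise in Ep400 clones passed the test narrowly (log2-fold change 0.77, 95% interval 0.28 to 1.25, adjusted p = 0.0462), and the lower level in Kat5 clones did not (log2-fold change −0.76, 95% interval −1.19 to −0.34, adjusted p = 0.0831). The direct comparison of both kos passed, with Spp1 2.78-fold higher in Ep400 than in Kat5 clones (log2 difference 1.48, SE 0.27, adjusted p = 0.0314). The call for Ep400 against WT was lost without any 1 of the WT libraries (adjusted p = 0.131, 0.112, 0.0574 and 0.111 for WT/1 to WT/4), without Ep400/2 (0.117) and without Ep400/3 (0.0631), with log2-fold changes of 0.65 to 0.85. For Kat5 it was gained without Kat5/1 (adjusted p = 0.0464) and with DESeq2 (0.0118). Macrophage and blood markers, of which only Cd68 reached a mean of 10 in WT and Adgre1 and Tyrobp were at 0 throughout, summed to 198 to 247 in WT, 119 to 265 in Kat5 and 108 to 300 in Ep400 clones.

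The stretch before the transcription start of Spp1 is shown because Spp1 was the most abundant member and the groups did not overlap for it. It covers chr5:104434861-104435110 on the plus strand (250 bases, RefSeq start, GRCm38.p6), and the capitals mark the letters of the RUNX motif, whose known binders include Runx1 and Runx2.
Spp1: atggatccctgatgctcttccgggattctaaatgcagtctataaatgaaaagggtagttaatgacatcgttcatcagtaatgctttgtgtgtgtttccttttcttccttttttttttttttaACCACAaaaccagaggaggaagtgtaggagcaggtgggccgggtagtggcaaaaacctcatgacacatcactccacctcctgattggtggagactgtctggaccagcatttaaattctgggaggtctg
The motif (TGTGGT, or ACCACA on the other strand) lies 128 bases before the start. The same letters were found in 14.1% of all 32851 promoters of this length, and in 2 of the 11 promoters listed for 7 of the 9 members, those of Spp1 and Runx2. No promoter was given for Sp7 and Comp. The letters TATAAA (12.4% of all promoters) were found in 3 of the 11 promoters, 1 of them this one, and the E-box CANNTG (66.2% of all promoters) in 8, while the AP-1 motif TGANTCA, the SOX motif ACAATGG and the cAMP response element TGACGTCA were found in none of the members' promoters.

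Spp1 lies at one end of a cluster of genes for acidic phosphoproteins of mineralised tissue, and its neighbours were examined after their values had been seen. Of 18 other genes starting within 500 kb of the Spp1 start, 8 were tested in either ko, and 3 of them rose in Ep400 clones, where 8.09% of all genes did. None fell, and none was called in Kat5 clones. Dmp1, which encodes dentin matrix protein and starts 233 kb away, was at 79.5, 7.52, 200 and 55.8 in WT, at 33.6, 14.7 and 247 in Kat5 clones and at 1546, 1508 and 1242 in Ep400 clones. The Ep400 clones were far above all other libraries (log2-fold change 4.07, SE 0.76, adjusted p = 0.0127). Sparcl1, which encodes a relative of osteonectin and starts 321 kb away, was at 22.5 to 78.0 in WT, 2.45 to 46.8 in Kat5 clones and 398 to 1392 in Ep400 clones (log2-fold change 4.28, SE 0.54, adjusted p = 0.0037). Nudt9, an ADP-ribose hydrolase gene beyond it, rose by a log2-fold change of 0.74 (adjusted p = 0.0465). The cluster members Ibsp and Mepe were at 0 in all 10 libraries and Dspp did not exceed 3.63 normalized counts. On the other side of Spp1, Pkd2 was not called (log2-fold change 0.40, adjusted p = 0.159). Genes of chromosome 5 as a whole shifted by −0.06 to 0.10 in Ep400 clones.

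**Figure D2:**
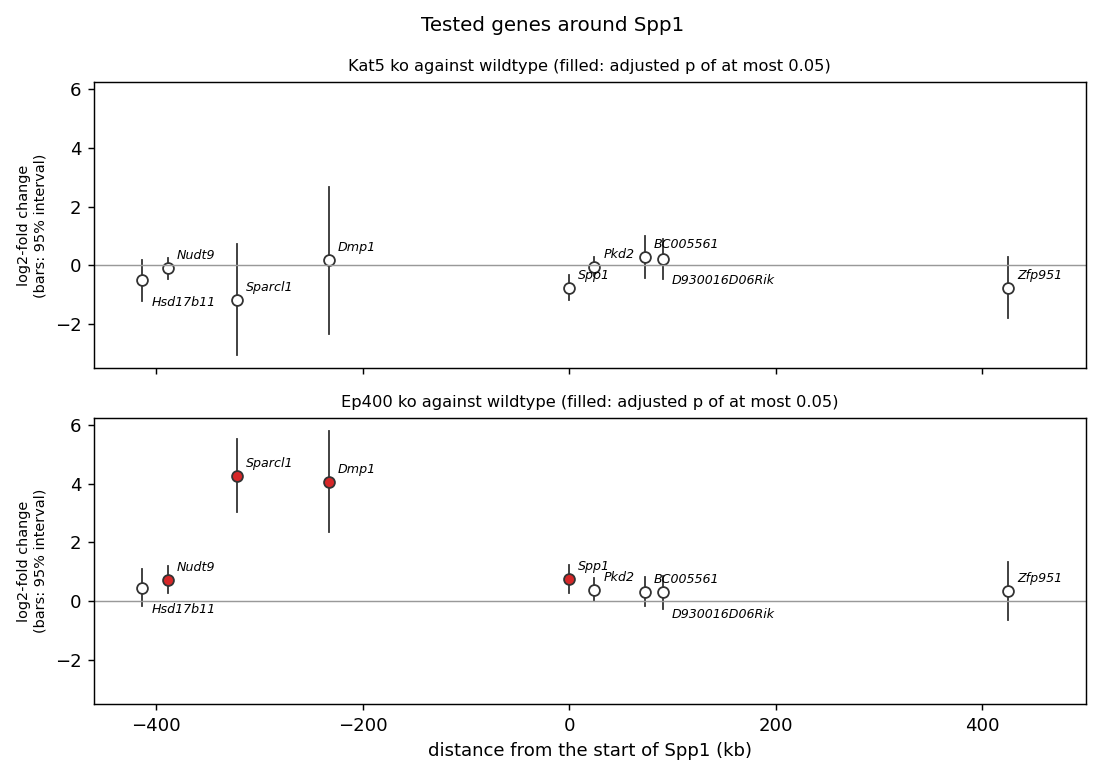
Log2-fold changes with 95% intervals of the 9 tested genes that start within 500 kb of Spp1, plotted by the distance of their starts from that of Spp1 in kilobases, for Kat5 ko (top) and Ep400 ko (bottom) against WT. In Ep400 ko, filled points (adjusted p of at most 0.05) mark Nudt9, Sparcl1, Dmp1 and Spp1, with changes between 0.74 and 4.28, and in Kat5 ko no point is filled.

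Sparc (ENSMUSG00000018593, minus strand of chr11:55394500-55423183) encodes osteonectin, a collagen-binding glycoprotein of bone and of many other matrices. It was at 33983, 27650, 35528 and 32751 in WT, at 24149, 32033 and 36624 in Kat5 clones and at 22023, 24502 and 28451 in Ep400 clones. Kat5/1 and Kat5/3 fell on either side of WT, and 2 of 3 Ep400 clones lay below it. Neither difference passed the test (log2-fold change −0.10, 95% interval −0.49 to 0.29, adjusted p = 0.768 in Kat5 ko, and −0.36, interval −0.74 to 0.01, adjusted p = 0.162 in Ep400 ko). Without Kat5/1 the change in Kat5 ko was 0.047 (adjusted p = 0.834). Genes of chromosome 11 were shifted by −0.23, −0.21 and −0.28 in the Ep400 clones, and after an offset for the chromosome the log2-fold change of Sparc was −0.12 (adjusted p = 0.625).

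Postn (ENSMUSG00000027750, plus strand of chr3:54361109-54391037) encodes periostin. WT libraries were at 1148, 20.4, 403 and 1166, Kat5 clones at 1404, 2.45 and 16.3, and Ep400 clones at 130, 224 and 28536. The highest library exceeded the lowest 57.2-fold in WT, 572-fold in Kat5 ko and 220-fold in Ep400 ko, and the groups overlapped. Ep400/3, where Postn was the 90th most abundant gene, decided the mean of its group. The log2-fold change was −0.54 (SE 1.65, adjusted p = 0.877) in Kat5 ko and 3.84 (SE 1.75, adjusted p = 0.168) in Ep400 ko. It changed to −1.95 (adjusted p = 0.325) in Ep400 ko without Ep400/3, and in Kat5 ko to −6.10 (adjusted p = 0.0445) without Kat5/1, the clone with high smooth muscle genes. No direction can be given for Postn in either ko.

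Acan (ENSMUSG00000030607, plus strand of chr7:79053483-79115099) encodes aggrecan, the proteoglycan that gives cartilage its resistance to compression. WT libraries were at 826, 772, 205 and 908, Kat5 clones at 124, 179 and 2067, and Ep400 clones at 6.87, 1.16 and 0. Ep400 clones were below all WT libraries and all Kat5 clones. Acan entered the comparison with WT only through the WT libraries, and that with Kat5 clones only through the Kat5 clones. Kat5/1 and Kat5/2 lay below WT and Kat5/3 above it. The mean of 2.68 ± 3.68 (n = 3) in Ep400 clones was 0.395% of the WT mean of 678 ± 320 (n = 4). The log2-fold change was −7.83 (95% interval −9.96 to −5.70, adjusted p = 0.00318), and it passed the test under all 17 alternatives run, with adjusted p-values from 1.44e-12 to 0.0241. With 1 library left out the log2-fold change ran from −10.04 (without Ep400/1) to −7.25 (without Ep400/3). Raw counts were 8, 1 and 0 in clones Ep400/1 to Ep400/3, so that the size of the fall is poorly determined. With 2735 raw counts in WT and 9 in Ep400 clones, the level in WT was 236 times that in Ep400 clones. The exact 95% counting interval of 124 to 516 covers counting error only.

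In Kat5 ko the log2-fold change of Acan was 0.19 with an SE of 0.92 (adjusted p = 0.924). It was 0.70 without Kat5/1 (adjusted p = 0.583), −2.18 without Kat5/3 (adjusted p = 0.20) and −0.10 without WT/3. The difference between Ep400 and Kat5 clones passed the test (log2 difference −8.08, SE 1.62, adjusted p = 0.0361). It was −10.28 without Ep400/1 and −5.71 without Kat5/3, and neither passed the test (adjusted p = 0.0554 and 0.113).

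The sequence before the start of Acan is printed because Acan changed most among the members. It covers chr7:79052976-79053225 on the plus strand (250 bases, RefSeq start, GRCm38.p6) and consists of 74.4% G and C. The capitals mark the GC box, a motif bound by factors of the Sp family.
Acan: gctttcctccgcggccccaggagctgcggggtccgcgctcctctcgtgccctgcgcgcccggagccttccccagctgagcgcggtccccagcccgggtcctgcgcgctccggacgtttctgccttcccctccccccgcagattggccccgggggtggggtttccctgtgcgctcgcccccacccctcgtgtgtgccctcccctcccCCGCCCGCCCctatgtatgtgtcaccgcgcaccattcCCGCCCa
The motif (GGGCGG, or CCGCCC on the other strand) was found 44, 40 and 7 bases before the start, and the 2 farther matches overlap. It was present in 32.7% of all promoters, and among the members also in a promoter of Alpl.

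Comp (ENSMUSG00000031849, plus strand of chr8:70373558-70382066) encodes a pentameric thrombospondin of cartilage and tendon matrix. Raw counts were 8, 1, 4 and 8 in WT, 5, 1 and 1 in Kat5 clones and 27, 22 and 70 in Ep400 clones. All Ep400 clones were above all other libraries. The normalized mean was 37.4 ± 22.7 (n = 3) in Ep400 clones and 5.24 ± 3.61 (n = 4) in WT, with a log2-fold change of 2.83 (95% interval 1.33 to 4.34, adjusted p = 0.0262). Comp was too low to test in the Kat5 comparison and entered the Ep400 comparison only through the Ep400 clones, a selection that itself requires a difference. It was 15.0-fold higher in Ep400 than in Kat5 clones (log2 difference 3.91, SE 0.85, adjusted p = 0.042), and it entered that comparison too only through the Ep400 clones. Without Kat5/1 the difference was 5.07. The call against WT was lost without WT/2, WT/3 or WT/4 (adjusted p = 0.0523, 0.0546 and 0.0695) and without Ep400/3 (0.0719, at 4.59-fold). Genes of chromosome 8 were shifted by −0.25 in Ep400/1 and −0.24 in Ep400/3.

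Over the members, 0 of 7 tested genes were called in Kat5 ko, where 0.499% of all 13434 tested genes were called. Alpl and Comp were too low to test. At an unadjusted p under 0.05 there were 2 members, Sp7 and Spp1, against 22.3% of all genes. DESeq2 called the same 2 members, and 1391 genes in all. Sp7 was tested only through its WT libraries, so that these counts are a description. In Ep400 ko 3 of 8 tested members were called, against 13.9% of 13836 genes, and Alpl was too low to test. Of these, 2 were higher (8.09% of all genes) and 1 lower (5.76% of all genes). Comp is 1 of the 2 higher members and was tested only through the Ep400 clones. Acan, the lower member, was tested only through the WT libraries, so that the count is a description. Without Comp 2 of 7 tested members were called, Acan among them. Acan alone met the limits for a strongly deregulated gene (a change of 1 or more on the log2 scale and a mean above 100 in a group), as 6.45% of all genes did. Between the kos 3 of 7 were called, against 7.32% of 13587 genes, and Sp7 and Alpl were too low to test. In Ep400 clones 2 were higher (4.34% of all genes) and 1 lower (2.97%), and without Comp 2 of 6 tested members were called. Acan, 1 of these 2, was tested only through the Kat5 clones. All clones lay below all WT libraries for 2 tested members in Kat5 ko, where this held for 10.6% of all genes. Sp7, tested only through its WT libraries, is 1 of these 2. In Ep400 ko all clones were above WT for 2 members (15.1% of all genes) and below it for 1 (15% of all genes), and all Ep400 clones were above all Kat5 clones for 2 (19.9%) and below them for 1 (18.7%). Comp and Acan, each tested only through the group where it was high, are among these members. The median log2-fold change of the tested members was −0.10 in Kat5 ko and 0.14 in Ep400 ko, beside 0 and 0.04 over all genes. Between the kos, leaving out Kat5/2, Kat5/3 or any 1 Ep400 clone ended all 3 calls, with adjusted p-values of 0.0502 to 0.118 for Spp1, 0.0554 to 0.113 for Acan and 0.0592 to 0.15 for Comp. Runx1, Runx2, Sparc and Postn were called in none of the 3 comparisons.

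**Figure D3:**
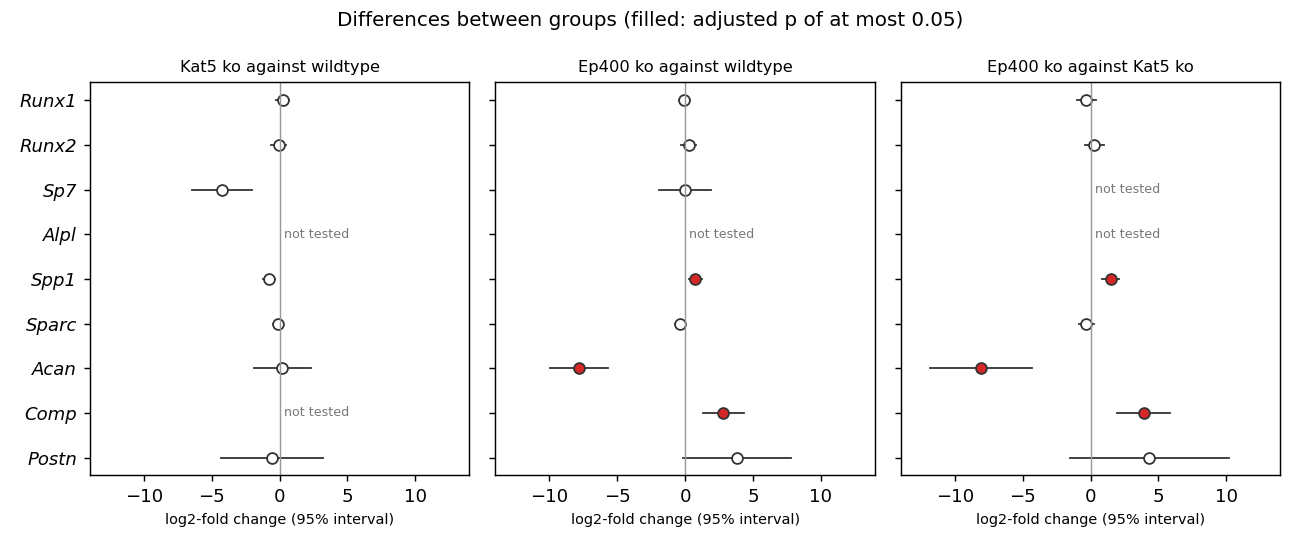
Log2-fold changes with 95% intervals of the 9 genes in Kat5 ko against WT, Ep400 ko against WT and Ep400 ko against Kat5 ko, where filled points had an adjusted p up to 0.05. Acan is filled at −7.83 and −8.08, Spp1 at 0.77 and 1.48 and Comp at 2.83 and 3.91, no point is filled for Kat5 ko, and the intervals of Postn are the widest in all 3 comparisons.

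Other skeletal genes were described in lists. These lists were chosen with earlier results of these data known, so their shares beside those of all genes are a description only. Among 14 osteoblast transcription factors, 13 were tested in Ep400 ko, and 2 rose and none fell. This share of 15.4% is near the 13.9% called among all genes. Dlx5, a homeobox gene of the branchial arches and of osteoblasts, had 1 raw count in all WT libraries together and was at 12.0, 35.9 and 41.8 normalized counts in Ep400 clones (ratio of counts 117, exact 95% counting interval 20.5 to 4682, adjusted p = 0.0056). Hey1, a target of Notch signaling, was at 0 to 3.56 in WT and 11.6 to 21.5 in Ep400 clones (adjusted p = 0.0311), but this call was lost in 7 of 16 alternatives. Both genes entered through the Ep400 clones, as did Phospho1 and Nkx3-2 below. The Runx family member Runx3 and the Runx partner Cbfb were tested and not called in any ko; they were named after their values had been seen.

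Of 28 genes of bone matrix and mineralisation, 21 were tested in Ep400 ko, 4 rose and 3 fell (33.3%, beside 13.9% of all genes), and 1 of the 4, Phospho1, entered only through the Ep400 clones. Besides Dmp1, Cdh11, a cadherin of osteoblasts and mesenchyme, rose from 325 ± 123 (n = 4) to 6795 ± 2993 (n = 3; log2-fold change 4.40, adjusted p = 0.00132), and was called in all 17 alternatives. Phospho1, a phosphatase that starts mineral deposition, was at 0.82 to 3.85 in WT and 16.3 to 39.4 in Ep400 clones (adjusted p = 0.0127). Crtap, which takes part in the hydroxylation of collagen, rose by a log2-fold change of 0.51 (adjusted p = 0.0262). Fkbp10, a chaperone for procollagen, fell from 7058 ± 669 to 4008 ± 166 (adjusted p = 0.00822). Plod2, a lysyl hydroxylase gene, fell by 1.34 on the log2 scale (adjusted p = 0.0368). Serpinh1, the gene of the collagen chaperone Hsp47, fell by 0.95 (adjusted p = 0.0398), and both were named after their values had been seen. The calls of Crtap, Plod2 and Serpinh1 were lost in 8, 8 and 9 of 17 alternatives. The list median was 0.35, beside 0.04 over all genes.

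In the lists for cartilage, 9 of 11 chondrocyte transcription factors were tested in Ep400 ko, with 1 higher and 1 lower (22.2%, beside 13.9% of all genes). Nkx3-2, a repressor that promotes chondrogenesis, had 0 counts in all WT libraries. Ep400 clones were at 15.5, 67.2 and 15.4 normalized counts (adjusted p = 0.0166). Their mean of 32.7, raised by the clone at 67.2, is at least 10.8-fold higher than a floor of 3 counts per WT library. Hif1a, the hypoxia-responsive factor that chondrocytes of the avascular growth plate need, fell from 9075 ± 974 to 5199 ± 506 (adjusted p = 0.0119). Of 26 cartilage matrix genes only 9 were high enough to test, and Matn2, a matrilin, was the 1 that was called, or 11.1% of them (log2-fold change −1.08, adjusted p = 0.0331, lost in 8 of 17 alternatives). The type II collagen gene Col2a1 did not exceed 13.2 normalized counts in any library, and was also named after its values had been seen. The list medians were −0.13 for the factors, also with Nkx3-2 at its bound, and −0.27 for the matrix genes.

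Of 30 relatives of the 9 genes, 15 were tested in Ep400 ko, 4 rose (26.7%, beside 8.09% of all genes) and none fell. Dmp1 and Sparcl1 are also among the neighbours of Spp1 above. They were Sparcl1 and Fstl1 of the Sparc family, Dmp1 of the Spp1 family and Thbs2 of the Comp family. Fstl1 rose from 4748 ± 1414 to 13360 ± 3330 (adjusted p = 0.0128) and Thbs2 from 1798 ± 883 to 4667 ± 1907 (adjusted p = 0.0476, lost in 7 of 17 alternatives). In Kat5 ko, 10 osteoblast factors, 20 bone matrix genes, 8 chondrocyte factors, 9 cartilage matrix genes and 14 relatives were tested and none was called. Unadjusted p-values under 0.05 were found for 1, 3, 2, 3 and 2 of them, respectively, or 10% to 33.3% of each list, against 22.3% of all genes. Without Kat5/1, between 1 (chondrocyte factors, 9 tested) and 4 (cartilage matrix, 10 tested) genes of each list were called. In that fit 2651 of all 13703 tested genes were called.

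**Figure D4:**
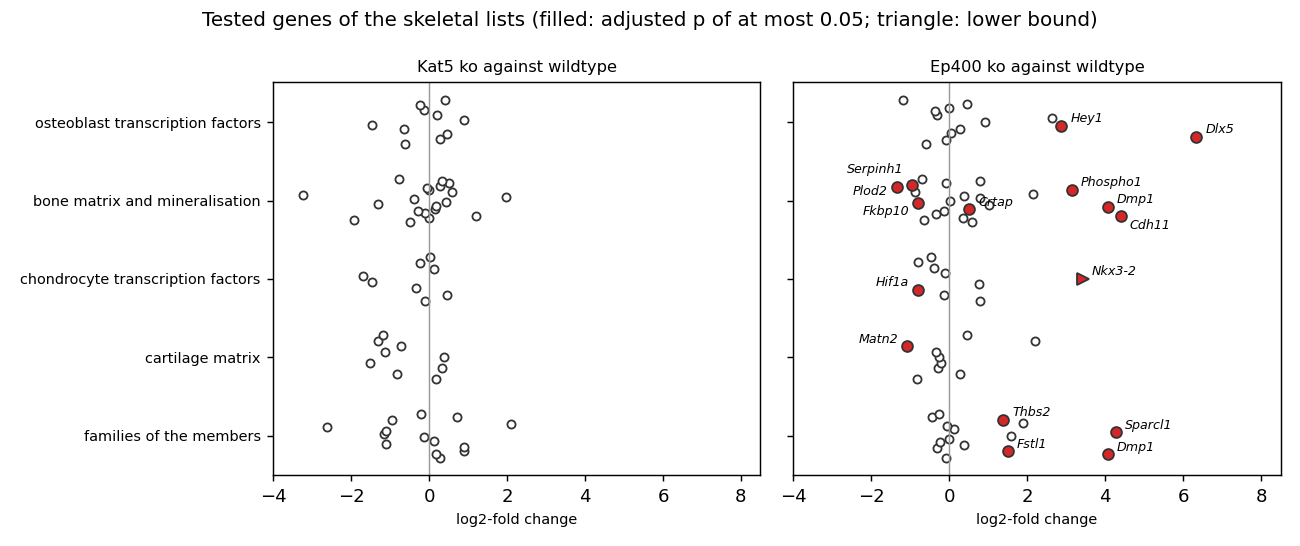
Log2-fold changes of all tested genes of 5 skeletal lists in Kat5 ko (left) and Ep400 ko (right) against WT, where filled and named points had an adjusted p up to 0.05, with a triangle at the lower bound for Nkx3-2, which had 0 counts in WT. No point is filled on the left, and on the right Dlx5, Cdh11, Dmp1 and Sparcl1 lie above 4 while Plod2, Matn2, Serpinh1, Fkbp10 and Hif1a lie between −1.34 and −0.79.

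The genes with the most similar pattern were sought by Pearson's correlation of log2 CPM (counts scaled to the library total) over the 10 libraries, among 14079 genes, as a description in which group differences and single clones weigh on every value. For Spp1 they were Klf9 and Serpinb8 (both r = 0.984) and Golga7b (0.982), and for Comp Snai2 and 2500004C02Rik (both 0.975) and Coro1a (0.972). For Acan they were Galk1 (0.969), Gm4735 (0.963) and Mtmr4 (0.962). Runx2 resembled Rnf115 (0.967), Peg10 (0.955) and Tnks (0.917), and Runx1 the transcript RP23-160G19.9 (0.938), Klhl1 (0.917) and Fhl3 (0.908). Sparc resembled Helz (0.953), which is also on chromosome 11, Eif4b (0.952) and Tatdn1 (0.931). For Postn the genes were Gbp6 (0.959), Ip6k1 (0.951) and Nos2 (0.948), and for Sp7, at counts near the limit of detection, Dnah1 (0.946), Mlph (0.891) and Sh2d4a (0.864). No member was among the 3 closest genes of another member.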

How the data were processed

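RNA of 4 WT, 3 Kat5 ko and 3 Ep400 ko O9-1 samples was sequenced by the authors from stranded poly-A libraries (paired reads of 100 bases). The submitters' processing notes name bcl2fastq 2.20, STAR 2.7.3, DESeq2 1.36.0, R 4.2.1 and the build mm10; the counting program and annotation are not given in the sources used here. The deposited raw counts are whole reads per gene; the deposited normalized tables hold the same libraries and were not used.

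With R 4.3.3 and edgeR 4.0.16, each comparison was fitted separately: filterByExpr, TMM, quasi-likelihood test, adjustment over all tested genes. Printed normalized counts use DESeq2 1.42.0 size factors over all 10 libraries. Positions are from GENCODE M21. Named list genes are up to 5 per list with the smallest adjusted p. The members and lists were chosen with earlier results of these data known. No libraries of a group were duplicates: chi-square values of their counts were 28.1 to 258 times the degrees of freedom. On simulated data with 200 genes changed by 2 on the log2 scale, 154 (Kat5), 156 (Ep400) and 114 (between kos) were recovered, with 14, 11 and 4 false calls. The simulation gave each gene the same spread in both groups and held no clone that stood apart. These rates therefore need not hold for the real comparisons. Alternatives were DESeq2, limma 3.58.1 (voom), other scalings and filters (at least 50 counts in 3 libraries), 1 fit of all libraries, a replicate block, an offset per chromosome, each library left out and, chosen after seeing the data, robust edgeR.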

Additional observations from a re-analysis of the deposited data

Results flagged for a closer look

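Spp1, Acan and Comp differed between both kos when these were compared with each other by edgeR's quasi-likelihood test. Spp1 was higher in Ep400 than in Kat5 clones by 1.48 on the log2 scale, with Ep400 clones above and Kat5 clones below all WT libraries. For Acan the log2 difference was −8.08, with Kat5 clones at 124 to 2067 and Ep400 clones at 0 to 6.87 normalized counts. For Comp the log2 difference was 3.91, at 5 raw counts or fewer in Kat5 clones. Comp was tested only through the Ep400 clones and Acan only through the Kat5 clones. All 3 calls ended when Kat5/2, Kat5/3 or any 1 Ep400 clone was left out, and 0 members were called with the replicate block.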

How the results depend on the processing

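Members called numbered 0 in Kat5 ko, 2 with DESeq2 and 0 to 3 with 1 library left out. They numbered 3 in Ep400 ko, 1 with the replicate block and 1 to 3 with 1 library left out, and 3 between the kos, 0 with the replicate block and 0 to 3 with 1 library left out. Between the kos the fit of all libraries called 4, with Sp7 added (adjusted p = 0.0323), and DESeq2 called 3 with Sp7 (0.0462) in place of Acan, for which it gave no adjusted p. The block took away Spp1 (adjusted p = 0.125) and Comp (0.114) in Ep400 ko. The labels name no pairing of libraries with the same replicate number. Deviations of such libraries correlated at −0.092 to 0.224. Libraries of unlike numbers were not compared, so these values cannot show whether a batch was shared. Spp1 in Ep400 ko was also lost with DESeq2 size factors (0.0511) and without a filter (0.0695), and Acan between the kos with limma (0.0604). The sign changed for log2-fold changes near 0 or with a large SE: in Kat5 ko for Acan (−0.56 with limma, −0.98 with the block) and Runx2 (0.037 with the block, 0.0020 with the chromosome offset), in Ep400 ko for Sp7 (−0.031 with DESeq2, −0.44 with limma, −0.011 with DESeq2 size factors, −0.032 without a filter, −0.21 with the block), and between the kos for Sparc (0.027 with the chromosome offset). With 1 library left out, values in Kat5 ko ranged from −2.18 to 0.70 for Acan, −0.063 to 0.41 for Runx1, −0.31 to 0.088 for Runx2, −0.23 to 0.047 for Sparc and −6.10 to 0.041 for Postn. In Ep400 ko they ranged from −1.07 to 0.51 for Sp7, −0.31 to 0.084 for Runx1, −0.031 to 0.46 for Runx2 and −1.95 to 4.41 for Postn, and between the kos from −0.0095 to 0.53 for Runx2 and −1.46 to 9.86 for Postn. The cause was not tested. Of 356 recomputed changes of members, 291 retained direction and call, 33 lost a call, 5 gained one and 27 changed sign. Most of the 291 were changes without a call in the main fit. Every lost call was one of Spp1, Acan or Comp, in Ep400 ko or between the kos. Over all genes, Kat5 ko had 67 calls, 1391 with DESeq2, 245 without a filter, 26 in the fit of all libraries, 0 with the block and 1 to 2651 with 1 library left out. Ep400 ko had 1917 calls, 3175 with DESeq2, 1273 in the fit of all libraries, 170 with the block and 826 to 2016 with 1 library left out. Between the kos there were 994 calls, 3013 with DESeq2, 1803 without a filter, 3539 in the fit of all libraries, 213 with the block and 4 to 2537 with 1 library left out. In Ep400 ko the calls per list ranged from 0 to 4 (osteoblast factors), 1 to 7 (bone matrix), 0 to 3 (both cartilage lists) and 1 to 5 (relatives). Without TMM the median of all genes between the kos moved from 0.01 to 0.14. DESeq2 also gave no adjusted p for Acan in Kat5 ko and for Postn in Ep400 ko and between the kos. Genes at a few counts (Sp7, Alpl, Comp) are limited by depth.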

Other observations

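Each clone lay outside the WT range for several of the 9 genes. Besides Alpl, which was at 2 counts or fewer, Kat5/1 was above WT for Runx1 and Postn and below it for Sp7, Spp1, Sparc and Acan. Kat5/3 was above WT for Sparc and Acan and below it for Runx1, Sp7, Spp1, Comp and Postn. Over 13721 genes, a single clone lay above all WT libraries for 27.4% to 36.2% and below them for 28.2% to 35.7%. Mgp, the matrix Gla protein gene that inhibits calcification, was at 12655 in the third WT library and at 340 to 1644 in the other WT libraries, and at 116 to 816 in Kat5 and 4105 to 6504 in Ep400 clones. It was named after its values had been seen.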
